A study of Homo sapiens with 12 samples.

Results

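Integrins are cell surface receptors for the extracellular matrix, and laminins are matrix proteins of the basement membrane that several integrins bind. The genes described here are all those in the deposited tables whose Ensembl identifier maps to the symbol of an integrin alpha or beta subunit or of a laminin alpha, beta or gamma chain. There are 38 of them among 37247 gene identifiers, all listed in both tables, and 37 are described below: 18 integrin alpha and 8 beta subunits, and 11 laminin chains. RNA was sequenced from LC-2/ad cells, a lung cancer line, and TPC-1 cells, a papillary thyroid cancer line, both called RET-aberrant in the series title and both known to carry a RET fusion. In each line 3 libraries came from cells given 100 nM selpercatinib, a drug that blocks the kinase RET, for 48 h, and 3 from parent cells, whose treatment is given as none, without word on solvent. Both media held fetal bovine serum, RPMI-1640 for TPC-1 and equal parts of it and F-12 for LC-2/ad. Whether the 3 libraries of a group were separate cultures is not stated, so each p-value is set against a spread that may be technical.

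An integrin is a pair of 1 alpha and 1 beta subunit, and the pair decides the ligand. The subunits alpha3, alpha6 and alpha7 with beta1, and alpha6 with beta4, bind laminins; alpha1 and alpha2 with beta1 bind collagens; alpha5 and the alphaV integrins bind matrix proteins with an RGD motif, such as fibronectin and vitronectin. A laminin is a trimer of an alpha, a beta and a gamma chain. Epithelia make mainly a trimer with LAMA3 and LAMB3, which holds cells to the basement membrane through alpha6beta4 in hemidesmosomes and through alpha3beta1, and trimers of LAMA5 with LAMB1 or LAMB2 and LAMC1. Transcript levels are given as TPM, a share of the library's transcripts scaled per length, so levels of different genes may be set side by side.

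Libraries had between 13713 and 14336 genes at 1 TPM or more in LC-2/ad and between 12554 and 12967 in TPC-1. LC-2/ad libraries held 3 of 5 lung markers at 1 TPM or more, with SFTPC at 0 in all. TPC-1 libraries held 2 of 5 thyroid markers, PAX8 and FOXE1, and 4 of 5 epithelial markers, with CDH1 below 1 TPM in both TPC-1 groups. LC-2/ad held 3 of 5 thyroid markers at 1 TPM or more in treated and 2 of 5 in parent libraries. The marker that differed was TG, at 1.12 ± 0.53 TPM treated and 0.65 ± 0.47 TPM parent (SD, n = 3 each). Its libraries overlapped between the groups, and it was not tested. FOXE1 averaged 36.2 TPM treated and 11.6 parent in LC-2/ad, against 9.27 and 9.11 in TPC-1. PAX8 averaged 21.9 TPM treated and 14.8 parent in LC-2/ad, against 271 and 190 in TPC-1. Mitochondrial transcripts took 14.6% ± 0.49 of all TPM in treated LC-2/ad libraries and 9.77% ± 0.05 in parent ones, against 6.33% ± 0.49 in treated and 6.97% ± 0.57 in parent TPC-1 libraries (SD, n = 3 each). The TPM of the other genes share what is left. On the first principal component of TPC-1 (38.4% of the variance) parent library 1 lay at -4.93, against -23.3 and -17.7 for the other parent libraries.

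In LC-2/ad, some integrin and laminin transcripts rose after selpercatinib, led by LAMB2, ITGA9 and ITGB6, and others fell, led by ITGA2, LAMA2 and LAMA4. Of the 37 genes, 26 had a mean of at least 1 TPM over the 6 libraries and were tested. By limma on log2(TPM + 1), adjusted over all genes tested, with a threshold of 0.05, 10 rose and 7 fell. Over all 14118 genes tested 55% passed, 30.6% higher and 24.4% lower, so the members' 65.4% and their split stand near the background. ITGA9, ITGAM and LAMA2, 3 of the 17 genes called, averaged under 1 TPM in the group where they were low and reached the test through the other. The median log2 fold change was 0.14 over the 26 genes and 0.07 over all genes. In TPC-1, 19 genes were tested and 2 passed, ITGAV higher and ITGA6 lower, where 4.96% of 12825 genes passed, 3.75% higher and 1.21% lower. The median was 0.04 over the 19 genes and 0.05 over all genes. Without TPC-1 parent library 1 the 2 calls were ITGAV and LAMB2, both higher. By limma 1 gene passed without treated library 1 or 3, and 0 passed without treated library 2 or parent library 2 or 3, with 5 to 7 at an unadjusted p under 0.05. With TPM rescaled by median of ratios the members' split was still 10 higher and 7 lower in LC-2/ad, but 1 higher and 2 lower in TPC-1. That rescaling turned the split over all genes to 3442 higher and 4318 lower in LC-2/ad, against 4319 and 3451 before it, and to 420 and 254 in TPC-1, against 481 and 155.

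**Figure D1:**
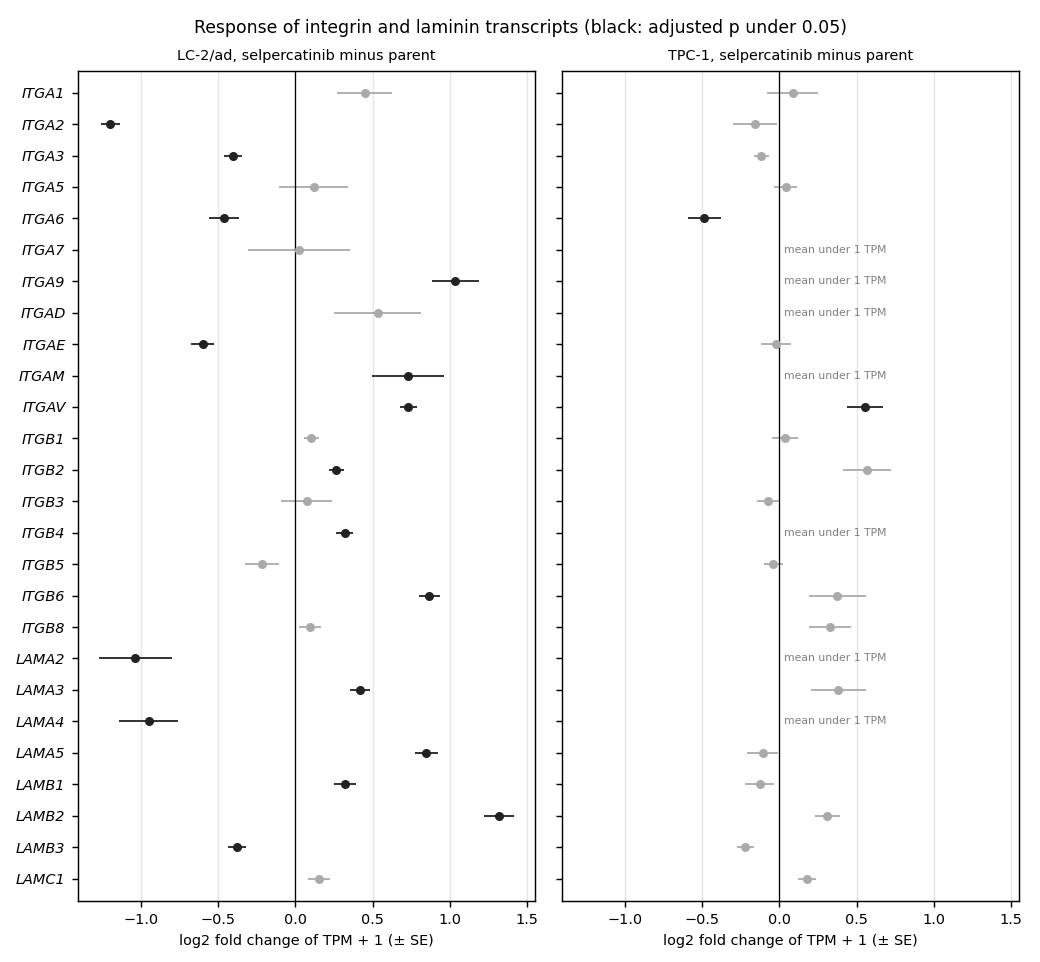
Log2 fold change of TPM + 1, selpercatinib minus parent, with its SE, for 26 integrin and laminin genes tested in LC-2/ad, 19 of them also in TPC-1. Black points passed the test and grey points did not; in LC-2/ad LAMB2 and ITGA9 lie farthest to the right and ITGA2 farthest to the left, and in TPC-1 the 2 black points are ITGAV and ITGA6.

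Of the chains of the epithelial trimer, LAMB3 fell and LAMA3 rose in LC-2/ad. LAMB3 (ENSG00000196878, GRCh38 chr1:209614870-209652466, minus strand), the beta3 chain, had 140.4, 142 and 149 TPM in treated LC-2/ad libraries and 203, 181 and 178 TPM in parent ones. Every treated value lay below every parent value, and the fall of 0.38 on the log2 scale had an SE of 0.06 (limma adjusted p = 0.000795). In a bulk library, fewer cells with a transcript and less transcript per cell cannot be told apart. TPC-1 cells had 153, 158 and 157 TPM of LAMB3 in treated libraries and 193, 177 and 176 TPM in parent ones. These groups did not overlap either, but the log2 fold change of -0.22 ± 0.05 missed the threshold (limma adjusted p = 0.0523). It passed with a mean of at least 5 TPM as the filter (adjusted p = 0.0379), with median-of-ratios scaling (0.0286) and without mitochondrial genes (0.0411). Of the epithelial markers EPCAM, KRT8, KRT18 and KRT19, 4 of 5, passed as lower in LC-2/ad and KRT18 in TPC-1. CDH1 did not pass in LC-2/ad and had a log2 fold change above 0 there (0.17 ± 0.07, limma adjusted p = 0.0623). The 5 summed to between 3935 and 4010 TPM in treated and between 5402 and 5563 TPM in parent LC-2/ad libraries, none at 0. In TPC-1 they summed to between 2446 and 2472 TPM in treated and between 2828 and 3148 TPM in parent libraries, none at 0 throughout a group. Their part in the epithelial laminin and hemidesmosome values was not tested.

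The alpha chain is LAMA3, whose gene also has a start for a longer form. In LC-2/ad it had 19.9, 19.2 and 18.4 TPM in treated libraries and 13.9, 14.4 and 13.9 TPM in parent ones, without overlap (log2 fold change 0.42 ± 0.06, limma adjusted p = 0.000951). TPC-1 had less of it, 5.29, 6.12 and 4.67 TPM in treated libraries and 5.13, 3.02 and 3.66 TPM in parent ones, which overlap (0.38 ± 0.18, limma adjusted p = 0.266).

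The regions before a start of LAMA3 and a start of LAMB3 hold letters of the AP-1 motif, the site of the JUN and FOS family of transcription factors. They are shown because both genes encode chains of 1 trimer and moved in opposite directions in LC-2/ad. Starts and sequences are from RefSeq (GRCh38.p14), which gave 33 starts for 26 of the 37 genes in the table used here. The search covered 250 bases before each start, both strands, for TGANTCA (AP-1), GGAATG (TEAD) and CGGAAG (ETS), which do not overlap one another in the sequences shown. AP-1 letters stood at 2 of the 33 starts (6.06%), against 6.57% of all 35116 starts in the table. The 2 are the LAMA3 start and a LAMB3 start. Each line below gives 29 bases, 5′ to 3′ on the gene's strand, with the match in capitals. The LAMA3 start is the internal one. The LAMB3 start shown lies 1092 bases inside the gene's annotated start. The other LAMB3 starts, 41 and 137 bases from the annotated start, had no AP-1 letters.
LAMB3, chr1:209651424-209651452, minus strand, first base of the match 67 bases before the start: gtcagccactcTGACTCAttcactttggg
LAMA3, chr18:23872884-23872912, plus strand, first base of the match 125 bases before the start: ctggcacaggcTGACTCAtgtgtgaagtt
LAMA3, chr18:23872940-23872968, plus strand, first base of the match 69 bases before the start: ccttcctcaccTGAGTCAggcaggcccgg

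Among the chains of the LAMA5 trimers, LAMA5 and LAMB2 rose in LC-2/ad by the largest amounts of the 8 laminin chains given here with a test. LAMB2 (ENSG00000172037, chr3:49121114-49133118, minus strand), the beta2 chain, had 66.6, 69.7 and 80.2 TPM in treated LC-2/ad libraries and 32.0, 26.8 and 26.2 TPM in parent ones. The lowest treated library was above the highest parent library (log2 fold change 1.32 ± 0.10, limma adjusted p = 1.92e-05). LAMA5 (ENSG00000130702, chr20:62307955-62367312, minus strand) had 171, 157 and 197 TPM in treated libraries and 98.4, 95.0 and 95.5 TPM in parent ones (0.85 ± 0.08, limma adjusted p = 6.03e-05). Its groups did not overlap. Over 1.71% of its exonic length LAMA5 faces ADRM1 on the other strand, which had 120.5 ± 3.4 TPM in treated and 150.1 ± 2.0 in parent LC-2/ad libraries (SD, n = 3 each); whether the libraries kept strand is not given in the sources used here.

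In TPC-1 neither chain passed. LAMB2 had 63.4, 66.1 and 58.9 TPM in treated TPC-1 libraries and 56.3, 47.9 and 47.4 TPM in parent ones, without overlap (log2 fold change 0.31 ± 0.08, limma adjusted p = 0.0671); it passed without parent library 1 (adjusted p = 0.0238) and with a mean of at least 5 TPM as the filter (0.0463). LAMA5 had 41.0, 42.4 and 44.5 TPM in treated libraries and 54.1, 41.8 and 43.1 TPM in parent ones, which overlap (-0.11 ± 0.10, limma adjusted p = 0.579). The highest parent value was in library 1, the TPC-1 parent library that stands apart from the other two on the first principal component. The responses differed between the lines, by -1.01 ± 0.13 for LAMB2 (limma interaction, adjusted p = 8.12e-05) and -0.96 ± 0.13 for LAMA5 (adjusted p = 0.000126), TPC-1 minus LC-2/ad.

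LAMB1, the beta1 chain, had 48.2, 50.9 and 49.2 TPM in treated LC-2/ad libraries and 40.2, 42.8 and 35.5 TPM in parent ones, without overlap (log2 fold change 0.32 ± 0.07, limma adjusted p = 0.00656). In TPC-1 its libraries overlapped, with 64.2, 63.8 and 57.2 TPM treated and 77.4, 60.6 and 65.5 TPM parent (-0.13 ± 0.09, limma adjusted p = 0.479). The difference between the lines was -0.45 ± 0.13 (limma interaction, adjusted p = 0.0146). LAMC1, the gamma1 chain of most laminins, had 92.6, 86.7 and 90.5 TPM in treated LC-2/ad libraries and 89.4, 80.2 and 73.2 TPM in parent ones (0.15 ± 0.07, limma adjusted p = 0.104). TPC-1 had 243, 222 and 226 TPM of LAMC1 in treated libraries and 214, 205 and 191 TPM in parent ones (0.18 ± 0.06, limma adjusted p = 0.127). The TPC-1 groups did not overlap and the LC-2/ad groups did; LAMC1 passed in LC-2/ad once mitochondrial genes were left out (adjusted p = 0.0275) and without parent library 1 (0.0159).

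The region before the RefSeq start of LAMA5 (GRCh38.p14, chr20:62367313-62367562, minus strand, 250 bases) is printed because LAMA5 was the most abundant laminin alpha chain in every library and its responses differed between the lines. The capitals mark CGGAAG, the ETS letters, on the other strand, 192 bases before the start. Such letters stood at 5 of the 33 starts (15.2%), against 16.5% of all starts in the table. TEAD letters stood at 4 of 33 (12.1%), against 11.9%.
LAMA5: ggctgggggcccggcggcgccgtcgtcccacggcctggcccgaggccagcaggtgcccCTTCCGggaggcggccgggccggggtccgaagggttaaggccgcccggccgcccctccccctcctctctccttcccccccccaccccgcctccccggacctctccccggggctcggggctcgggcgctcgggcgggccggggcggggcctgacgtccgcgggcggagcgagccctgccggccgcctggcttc

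The alpha chains of mesenchymal and muscle laminins were low in LC-2/ad and fell. LAMA4, common in blood vessel basement membranes, had 1.07, 2.21 and 2.14 TPM in treated libraries and 4.63, 4.36 and 3.99 TPM in parent ones (log2 fold change -0.95 ± 0.19, limma adjusted p = 0.00379). LAMA2, the alpha chain of muscle laminin, had 0.877, 0.0852 and 0.418 TPM in treated libraries and 1.59, 2.10 and 2.10 TPM in parent ones (-1.04 ± 0.24, limma adjusted p = 0.00686). Neither pair of groups overlapped; LAMA2 entered the test through its parent libraries. Endothelial markers summed to between 14.6 and 17.8 TPM in treated and between 14.5 and 16.3 TPM in parent LC-2/ad libraries, with 2 of 4 at 1 TPM or more in both groups and none at 0. Fibroblast markers summed to between 35.5 and 40.9 TPM in treated libraries, 2 of 5 at 1 TPM or more, and to between 28.9 and 34.0 TPM in parent libraries, 1 of 5, with none at 0. Single markers differed from these sums. Of the 2 endothelial markers tested, CDH5 passed as higher (0.59 ± 0.13, limma adjusted p = 0.00663) and KDR did not pass (-0.10 ± 0.09, 0.367). Of the 2 fibroblast markers tested, LUM passed as higher (1.05 ± 0.19, limma adjusted p = 0.00231), reaching the test through its treated libraries. COL1A1 did not pass (0.20 ± 0.09, limma adjusted p = 0.0933). The part of these markers in the falls of LAMA4 and LAMA2 was not tested. LAMA2 and LAMA4 were below the test's level in TPC-1, as were LAMA1, LAMB4 and LAMC3 in both lines.

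**Figure D2:**
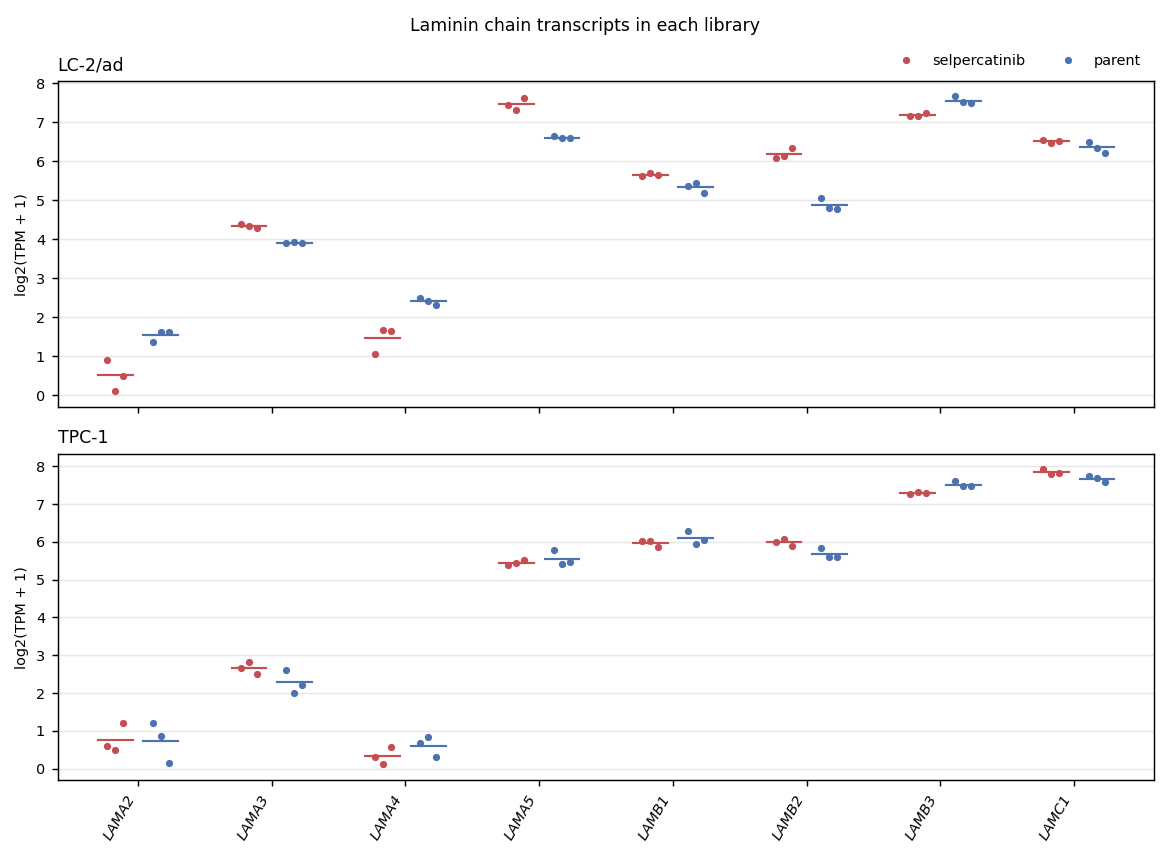
Laminin transcripts in each library on a log2(TPM + 1) axis, LC-2/ad above and TPC-1 below, for 8 chains tested in LC-2/ad. Points are libraries and bars are group means; the treated and parent points of LAMB3 are separate in both lines, and those of LAMA5 are separate in LC-2/ad and overlap in TPC-1.

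Summed over a class, the laminin alpha chains held 197 ± 20 TPM in treated and 117 ± 1.7 TPM in parent LC-2/ad libraries, and 49.4 ± 1.9 TPM in treated and 51.8 ± 8.3 TPM in parent TPC-1 libraries (SD, n = 3 each). LAMA5 made up 88.8% ± 1.3 of the alpha chain TPM in treated and 82.2% ± 0.62 in parent LC-2/ad libraries. Among the beta chains of LC-2/ad, whose sum was 265 ± 12 TPM treated and 255 ± 18 TPM parent, LAMB3 had a share of 54.1% ± 0.81 in treated and 73.4% ± 1.0 in parent libraries. LAMB2 had 27.2% ± 1.5 in treated and 11.1% ± 0.49 in parent LC-2/ad libraries. In TPC-1 LAMB3 was at 55.6% ± 1.6 treated and 60.6% ± 1.5 parent, and LAMB2 was at 22.4% ± 0.71 treated and 16.8% ± 0.42 parent. Shares are descriptions of these libraries and were not tested.

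**Figure D3:**
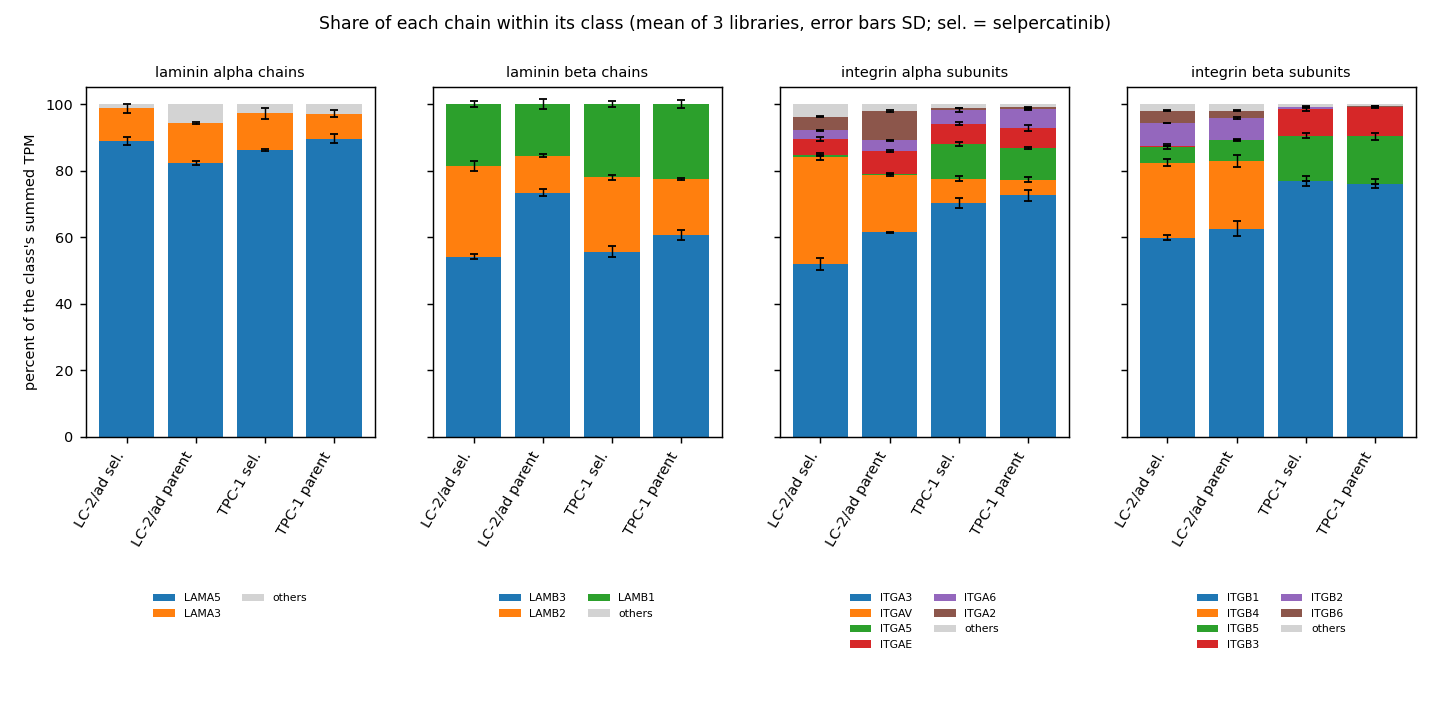
Percent of the summed TPM of each class taken by each chain or subunit, as the mean of 3 libraries with SD, for treated and parent libraries of LC-2/ad and then of TPC-1. LAMB2 and ITGAV take a larger share in treated than in parent LC-2/ad libraries (27.2% against 11.1%, and 32.3% against 17.3%), and LAMB3 a smaller one (54.1% against 73.4%).

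Among the laminin-binding integrins, ITGA6 fell in both lines. Of 5 such genes tested in LC-2/ad, ITGB4 rose and ITGA3 and ITGA6 fell, or 60%, near the 55% over all genes. Of 3 tested in TPC-1, ITGA6 fell, where 4.96% of all genes passed. ITGA6 (ENSG00000091409, chr2:172427354-172506282, plus strand), the alpha6 subunit of the hemidesmosome receptor, had 10.3, 8.47 and 8.78 TPM in treated LC-2/ad libraries and 12.7, 13.99 and 12.3 TPM in parent ones. In TPC-1 it had 40.8, 30.5 and 33.2 TPM in treated libraries and 48.4, 46.1 and 52.4 TPM in parent ones. Treated libraries lay below parent libraries in both lines, with a log2 fold change of -0.46 ± 0.10 in LC-2/ad (limma adjusted p = 0.00466) and -0.49 ± 0.11 in TPC-1 (limma adjusted p = 0.0355). The estimates differed by -0.03 ± 0.15 (limma interaction, adjusted p = 0.909). In TPC-1 the call for ITGA6 ended in 7 of 14 refits: without parent library 1, 2 or 3 or treated library 2 or 3 (adjusted p of 0.0569 to 0.143), without a filter on low values and without a variance trend.

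ITGA3 (ENSG00000005884, chr17:50055968-50090481, plus strand), the alpha3 subunit and the most abundant integrin alpha transcript in every library, had 201, 181 and 172 TPM in treated LC-2/ad libraries and 247, 244 and 242 TPM in parent ones. The treated libraries lay below the parent libraries (log2 fold change -0.40 ± 0.06, limma adjusted p = 0.000607). In TPC-1 it had 581, 573 and 595 TPM in treated libraries and 607, 629 and 665 TPM in parent ones, also without overlap, but the change did not pass (-0.12 ± 0.05, limma adjusted p = 0.195). The difference between the lines was 0.29 ± 0.08 (limma interaction, adjusted p = 0.00988), and 0.064 was its adjusted p once mitochondrial genes were left out.

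ITGB4 (ENSG00000132470, chr17:75721328-75757818, plus strand), the beta4 subunit that joins alpha6 in hemidesmosomes, had 172, 180.3 and 183 TPM in treated LC-2/ad libraries and 154, 141 and 134 TPM in parent ones. It rose without overlap (log2 fold change 0.32 ± 0.06, limma adjusted p = 0.00183) while its only alpha partner fell. The ratio of ITGB4 to ITGA6 TPM was 19.6 ± 2.6 in treated and 11.1 ± 1.0 in parent LC-2/ad libraries (SD, n = 3 each), a ratio chosen after the values were seen. In TPC-1 ITGB4 was not tested, with 1.39, 0.740 and 1.33 TPM in treated libraries and 0.831, 0.814 and 0.764 TPM in parent ones. ITGB1, the beta1 partner of alpha3 and of most other alpha subunits, had 487, 473 and 463 TPM in treated LC-2/ad libraries and 415, 444 and 467 TPM in parent ones (0.10 ± 0.05, limma adjusted p = 0.0931). In TPC-1 ITGB1 had 1331, 1188 and 1162 TPM in treated libraries and 1359, 1076 and 1167 TPM in parent ones (0.04 ± 0.09, limma adjusted p = 0.855). Both ITGB1 comparisons overlap; ITGB1 passed in LC-2/ad without mitochondrial genes (adjusted p = 0.0114) and without parent library 3 (0.0325). ITGA7, a muscle laminin receptor, had 2.04, 1.87 and 0.787 TPM in treated LC-2/ad libraries and 2.88, 1.14 and 0.783 TPM in parent ones, which overlap (0.02 ± 0.33, limma adjusted p = 0.958).

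Set by receptor and ligand in LC-2/ad, the alpha6beta4 pair held ITGA6 lower and ITGB4 higher. The alpha3beta1 pair held ITGA3 lower and ITGB1 without a call. Of the epithelial trimer, a ligand of both pairs, LAMA3 was higher and LAMB3 lower. The LAMA5 trimers, ligands of alpha3beta1, alpha6beta1 and alpha6beta4, held LAMA5, LAMB1 and LAMB2 higher and LAMC1 without a call. In TPC-1 ITGA6 was lower, while ITGB4 averaged 0.978 TPM over the 6 libraries and was not tested, so alpha6beta4 has no reading there. The alpha3beta1 pair with the LAMA5 trimers held no call in receptor or ligand. By limma 0 of the 6 laminin chains given here for TPC-1 passed, where 4.96% of all genes did. Of the 6, 3 had an unadjusted p under 0.05. For trimers of LAMA4, LAMA1 or LAMA2, whose receptors are alpha6beta1 and alpha7beta1, LC-2/ad held LAMA2 and LAMA4 lower with ITGA6.

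**Figure D4:**
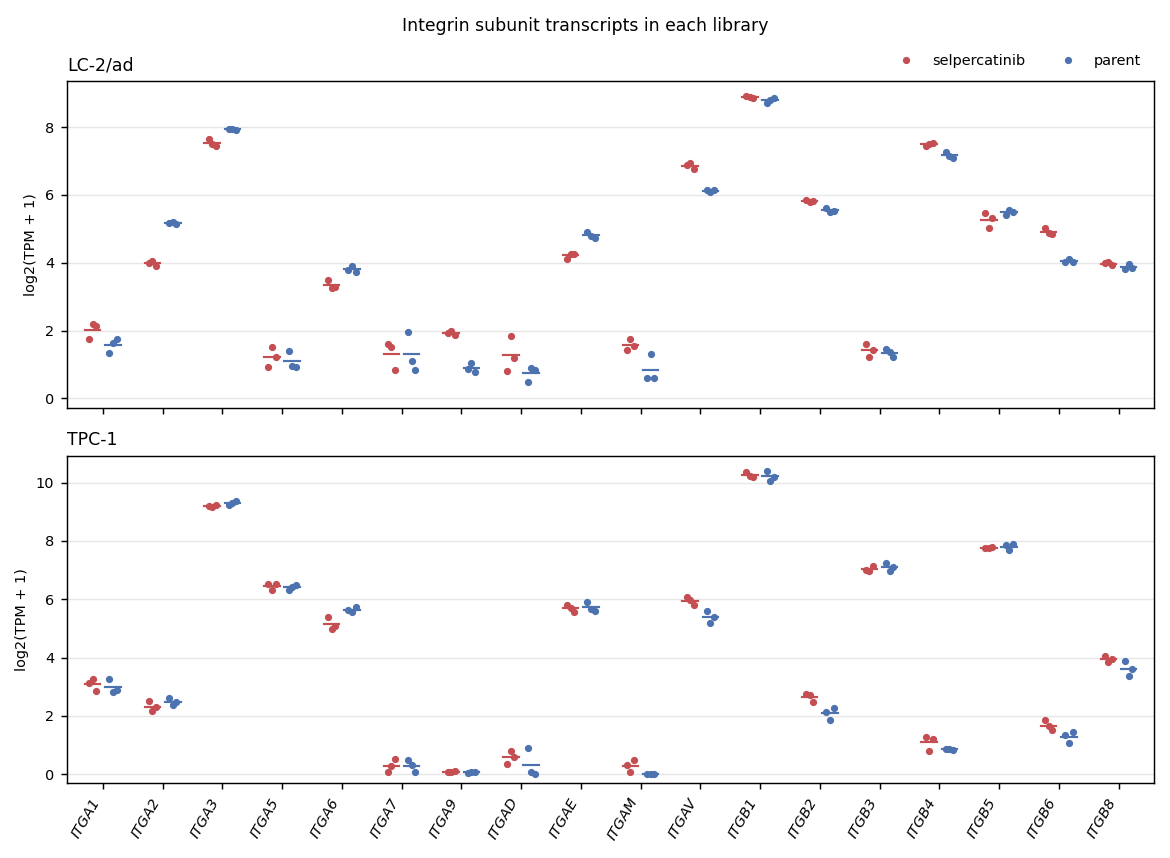
Integrin subunit transcripts in each library on a log2(TPM + 1) axis, LC-2/ad above and TPC-1 below, for the 18 subunits tested in LC-2/ad. Points are libraries and bars are group means; ITGB1 is the highest subunit in both lines, ITGAV is higher and ITGA6 lower in treated than in parent libraries of both lines, and ITGA2 is lower in treated than in parent LC-2/ad libraries.

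The collagen receptor ITGA2 showed the largest fall of any integrin in LC-2/ad. ITGA2 (ENSG00000164171, chr5:52989326-53094779, plus strand), the alpha2 subunit, had 15.0, 15.4 and 13.9 TPM in treated LC-2/ad libraries and 35.1, 35.9 and 34.3 TPM in parent ones. No treated library came near a parent library (log2 fold change -1.20 ± 0.06, limma adjusted p = 3.53e-06). TPC-1 had little ITGA2, 4.65, 3.48 and 3.90 TPM in treated libraries and 5.07, 4.15 and 4.50 TPM in parent ones, which overlap (-0.16 ± 0.14, limma adjusted p = 0.579). The responses differed by 1.04 ± 0.14 (limma interaction, adjusted p = 9.67e-05). ITGA1, the other collagen receptor tested, had 2.36, 3.54 and 3.36 TPM in treated LC-2/ad libraries and 1.52, 2.08 and 2.37 TPM in parent ones, which overlap in part (0.45 ± 0.18, limma adjusted p = 0.0646). It passed without treated library 1 (adjusted p = 0.0323), without mitochondrial genes (0.0418) and with replicate numbers as a block (0.0447). It had 7.69, 8.67 and 6.17 TPM in treated TPC-1 libraries and 8.70, 5.99 and 6.43 TPM in parent ones (0.09 ± 0.16, limma adjusted p = 0.808). ITGA10 and ITGA11 were below the test's level in both lines.

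Of the receptors for RGD proteins, ITGAV rose in both lines. ITGAV (ENSG00000138448, chr2:186590065-186680901, plus strand), the alphaV subunit that pairs with beta1, beta3, beta5, beta6 or beta8, had 118, 121 and 107 TPM in treated LC-2/ad libraries and 69.3, 67.6 and 69.8 TPM in parent ones. In TPC-1 it had 67.0, 61.2 and 54.9 TPM in treated libraries and 47.8, 35.3 and 41.2 TPM in parent ones. The groups did not overlap in either line, with a log2 fold change of 0.73 ± 0.05 in LC-2/ad (limma adjusted p = 1.95e-05) and 0.55 ± 0.11 in TPC-1 (limma adjusted p = 0.0287). The estimates differed by -0.18 ± 0.14 (limma interaction, adjusted p = 0.337), and the TPC-1 call ended in 6 of 14 refits: without parent library 2 or 3 or treated library 1 or 2 (adjusted p of 0.0826 to 0.105), without a filter on low values (0.127) and without a variance trend (0.0925). ITGAV took 32.3% ± 1.0 of the integrin alpha TPM in treated and 17.3% ± 0.41 in parent LC-2/ad libraries, and 7.35% ± 0.68 in treated and 4.75% ± 0.74 in parent TPC-1 libraries (SD, n = 3 each).

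Of its beta partners, ITGB6 alone passed. ITGB6 (ENSG00000115221, chr2:160099666-160200313, minus strand), the epithelial beta6 subunit that makes alphaVbeta6, an activator of latent TGF-beta, had 31.5, 28.1 and 27.9 TPM in treated LC-2/ad libraries and 15.2, 16.2 and 15.2 TPM in parent ones. The groups were well apart (log2 fold change 0.87 ± 0.07, limma adjusted p = 3.19e-05). Over 20.6% of its exonic length ITGB6 shares its strand with AC092153.1, which has no TPM value here. The part of AC092153.1 in the ITGB6 values was not tested. TPC-1 had little ITGB6, 2.58, 2.11 and 1.83 TPM in treated libraries and 1.55, 1.09 and 1.71 TPM in parent ones, just without overlap (0.37 ± 0.18, limma adjusted p = 0.286). The difference between the lines was -0.49 ± 0.17 (limma interaction, adjusted p = 0.0392) and no longer passed in 13 of 19 refits, among them those without any 1 LC-2/ad library, TPC-1 parent library 1 or 3 or treated library 2 or 3 (adjusted p of 0.0549 to 0.0974), and at a pseudocount of 0.1 (0.276). The ratio of ITGB6 to ITGAV TPM was 0.254 ± 0.019 in treated and 0.226 ± 0.012 in parent LC-2/ad libraries (SD, n = 3 each), and the libraries of the groups overlapped in this ratio, which was chosen after the values were seen.

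ITGB5 had 43.3, 31.5 and 39.2 TPM in treated LC-2/ad libraries and 41.4, 46.3 and 44.1 TPM in parent ones (log2 fold change -0.21 ± 0.11, limma adjusted p = 0.134, and 0.0391 without treated library 1). ITGB8, the other beta partner known for TGF-beta activation, had 14.7, 15.3 and 14.2 TPM in treated LC-2/ad libraries and 13.2, 14.7 and 13.4 TPM in parent ones (0.09 ± 0.07, limma adjusted p = 0.3). Both overlap. In TPC-1, ITGB8 had 15.5, 13.3 and 14.3 TPM in treated libraries and 13.7, 9.28 and 11.2 TPM in parent ones, which overlap narrowly (0.33 ± 0.14, limma adjusted p = 0.212). ITGB3, ITGB5 and ITGA5 were abundant in TPC-1, overlapped between groups and did not pass. ITGB3 had 126, 124 and 140.1 TPM in treated TPC-1 libraries and 149, 125 and 138 TPM in parent ones (-0.07 ± 0.08, limma adjusted p = 0.64). ITGB5 had 217, 214 and 218 TPM in treated TPC-1 libraries and 229, 203 and 237 TPM in parent ones (-0.04 ± 0.06, limma adjusted p = 0.755). ITGA5, the alpha5 subunit of the main fibronectin receptor, had 91.1, 78.1 and 90.3 TPM in treated TPC-1 libraries and 79.2, 84.7 and 87.8 TPM in parent ones (0.04 ± 0.07, limma adjusted p = 0.803). In LC-2/ad ITGB3 and ITGA5 were low: ITGB3 had 2.03, 1.35 and 1.67 TPM in treated libraries and 1.72, 1.58 and 1.32 TPM in parent ones, and ITGA5 had 0.884, 1.83 and 1.30 TPM in treated libraries and 1.61, 0.940 and 0.898 TPM in parent ones, without a call. Over 51.6% of its exonic length ITGB3 shares its strand with a readthrough gene, AC068234.1, at 0.122 ± 0.2 TPM or less in every group.

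The regions before the RefSeq starts of ITGAV and ITGB6 (GRCh38.p14) are printed because these partners rose together in LC-2/ad. That of ITGAV is chr2:186589806-186590055, plus strand, 250 bases, with CGGAAG, the ETS letters, in capitals 158 bases before the start. That of ITGB6 is chr2:160200314-160200522, minus strand, 209 bases, ending 41 bases before the start, where an annotated exon begins; it holds none of the 3 motifs, so no letter is in capitals.
ITGAV: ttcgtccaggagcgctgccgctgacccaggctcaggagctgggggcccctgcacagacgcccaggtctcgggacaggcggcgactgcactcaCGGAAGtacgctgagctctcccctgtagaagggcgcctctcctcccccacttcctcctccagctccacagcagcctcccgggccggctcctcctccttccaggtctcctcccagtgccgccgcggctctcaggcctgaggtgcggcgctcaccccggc
ITGB6: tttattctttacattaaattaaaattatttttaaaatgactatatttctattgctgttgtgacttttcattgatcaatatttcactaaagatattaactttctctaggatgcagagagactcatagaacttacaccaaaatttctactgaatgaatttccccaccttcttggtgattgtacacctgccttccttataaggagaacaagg

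ITGA9, the alpha9 subunit, a receptor for tenascin-C among others, rose in LC-2/ad to 2.84, 2.96 and 2.64 TPM in treated libraries, against 0.836, 1.06 and 0.701 TPM in parent ones (log2 fold change 1.04 ± 0.15, limma adjusted p = 0.000717). The groups were apart, and the treated libraries brought the gene over the test's level. Its ligand TNC fell in both lines: it had 3.86, 3.16 and 3.62 TPM in treated LC-2/ad libraries and 12.4, 11.6 and 11.7 TPM in parent ones (-1.51 ± 0.10, limma adjusted p = 1.06e-05). In TPC-1, TNC had 25.2, 25.7 and 24.6 TPM in treated libraries and 50.5, 35.5 and 38.6 TPM in parent ones (-0.69 ± 0.12, limma adjusted p = 0.0133); this call ended without treated library 1 (0.0563), without a filter on low values (0.0828) and without a variance trend (0.053). ITGA9 was at most 0.0724 TPM in any TPC-1 library, and ITGA4 was below the test's level in both lines.

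Among the subunits named for leukocytes, 2 of 4 tested in LC-2/ad rose and 1 fell, where 55% of all genes passed, and by limma neither of 2 tested in TPC-1 passed, where 4.96% did. ITGB2, the beta2 subunit, had 56.2, 54.3 and 54.9 TPM in treated LC-2/ad libraries and 48.0, 44.1 and 45.2 TPM in parent ones (log2 fold change 0.26 ± 0.05, limma adjusted p = 0.00272). ITGAM, an alpha partner of beta2, had 1.69, 2.34 and 1.91 TPM in treated libraries and 0.512, 1.48 and 0.523 TPM in parent ones (0.73 ± 0.23, limma adjusted p = 0.0306), a call that ended in 5 of 13 refits: without parent library 1 or 3 or treated library 2 or 3 (adjusted p of 0.068 to 0.0932) and without a filter on low values (0.0572). Both were higher in every treated library, ITGAM by a small margin, and ITGAM reached the test through its treated libraries. ITGAD had 0.745, 2.54 and 1.28 TPM in treated LC-2/ad libraries and 0.394, 0.858 and 0.795 TPM in parent ones, which overlap (0.53 ± 0.28, limma adjusted p = 0.146). The 4 leukocyte markers PTPRC, CD3E, CD14 and LYZ summed to between 1.35 and 1.79 TPM in treated and between 1.18 and 2.22 TPM in parent LC-2/ad libraries, none averaging 1 TPM, with CD3E at 0 in the treated ones. In TPC-1, ITGB2 had 5.74, 5.53 and 4.62 TPM in treated libraries and 3.36, 2.62 and 3.84 TPM in parent ones, without overlap (0.57 ± 0.16, limma adjusted p = 0.0767). The leukocyte markers there summed to between 0.12 and 0.426 TPM in treated and between 0.144 and 0.263 TPM in parent libraries, with CD3E at 0 in parent ones.

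ITGAE, the alphaE subunit whose known ligand is the CDH1 protein, had 16.4, 18.1 and 18.2 TPM in treated LC-2/ad libraries and 29.2, 26.6 and 25.6 TPM in parent ones. It fell without overlap (log2 fold change -0.60 ± 0.07, limma adjusted p = 0.000312). In TPC-1 it had 55.5, 50.8 and 46.6 TPM in treated libraries and 58.7, 49.5 and 47.6 TPM in parent ones, which overlap (-0.02 ± 0.10, limma adjusted p = 0.921), and the lines differed by 0.58 ± 0.13 (limma interaction, adjusted p = 0.00349). HASPIN, a mitotic kinase gene that lies within ITGAE on the other strand and covers 6.41% of its exonic length, had 1.34 ± 0.22 TPM in treated and 4.76 ± 0.34 TPM in parent LC-2/ad libraries, and 8.35 ± 0.35 TPM in treated and 7.77 ± 0.21 TPM in parent TPC-1 libraries (SD, n = 3 each). Its part in the ITGAE values was not tested. The alphaE partner ITGB7 was below the test's level in both lines.

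The 11 genes below the test's level in both lines were ITGA10, ITGA11, ITGA2B, ITGA4, ITGA8, ITGAL, ITGAX, ITGB7, LAMA1, LAMB4 and LAMC3. In LC-2/ad their means over the 6 libraries ranged from 0.0132 to 0.957 TPM. In TPC-1 a further 7 were below it, ITGA7, ITGA9, ITGAD, ITGAM, ITGB4, LAMA2 and LAMA4, and the 18 together ranged from 0.00188 to 0.978 TPM. Without a filter on low values, ITGA10 passed in LC-2/ad, the only 1 of the 11 to do so there. It had 1.02, 0.614 and 1.09 TPM in treated and 0.341, 0.335 and 0.369 TPM in parent libraries. At such levels, with depth unknown, no change was read.

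The response was also compared between the lines over the 19 genes tested in both. The difference passed for 7, with 3 higher in TPC-1 than in LC-2/ad (ITGA2, ITGAE and ITGA3) and 4 lower (LAMB2, LAMA5, ITGB6 and LAMB1). That is 36.8%, the background level: 36.6% of 11996 genes passed, 22.2% higher and 14.4% lower. The median difference was -0.04 over the 19 genes and 0.04 over all. None of the 7 had a called change in TPC-1. Over all genes the calls split into 2660 higher and 1733 lower, and into 2066 and 2302 once mitochondrial genes were left out, where the members split into 2 and 4.

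Genes that act with these receptors and chains were read from 4 lists of 69 genes. The lists were chosen with earlier results of these data known. Their shares, here and below, are descriptions set beside all genes and no test of a list. In LC-2/ad 57 were tested and 61.4% passed, near the 55% over all genes. The direction was less even: 33 rose and 2 fell, where 30.6% of all genes rose and 24.4% fell. The median log2 fold change was 0.34 against 0.07. In TPC-1 55 were tested, of which 16 rose and 1 fell, so 30.9% passed against 4.96% over all genes, with a median of 0.13 against 0.05. With median-of-ratios scaling the LC-2/ad counts were 31 and 6. The highest share of calls in both lines was in the list of basement membrane proteins and other laminin receptors, with 11 of 12 tested genes higher in LC-2/ad and 7 of 13 in TPC-1, none lower, and medians of 0.85 and 0.57. In LC-2/ad the leading genes were collagen IV chains, the network that laminin sits on. COL4A4 had 4.30, 4.86 and 4.84 TPM in treated libraries and 0.234, 0.644 and 0.241 TPM in parent ones (log2 fold change 2.06 ± 0.17, limma adjusted p = 3.68e-05), and COL4A3 averaged 3.42 ± 0.92 TPM treated and 0.037 ± 0.013 TPM parent (2.07 ± 0.20, limma adjusted p = 8.92e-05). COL4A1 averaged 14.9 TPM treated and 6.11 TPM parent (1.16 ± 0.09, limma adjusted p = 2.03e-05), and COL4A5 averaged 18.6 TPM treated and 7.98 TPM parent (1.11 ± 0.18, limma adjusted p = 0.00112). All 4 had treated libraries above the parent libraries; COL4A3 and COL4A4 averaged under 1 TPM in parent libraries and reached the test through the treated ones.

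In TPC-1 the leading genes of that list were NTN4, NID2, HSPG2 and COL4A4. NID2, a nidogen that links laminin to collagen IV, had 87.2, 85.3 and 95.5 TPM in treated libraries and 57.0, 46.0 and 53.6 TPM in parent ones (log2 fold change 0.77 ± 0.09, limma adjusted p = 0.00181). HSPG2, which encodes perlecan, had 191, 166 and 203.5 TPM in treated libraries and 121, 107 and 108 TPM in parent ones (0.73 ± 0.08, limma adjusted p = 0.00181). NTN4, a netrin that binds laminin gamma1, averaged 22.8 TPM treated and 12.6 TPM parent (0.82 ± 0.13, limma adjusted p = 0.00898), and COL4A4 averaged 35.3 TPM treated and 21.9 TPM parent (0.67 ± 0.11, limma adjusted p = 0.0105). None of the 4 overlapped between groups. COL4A4 missed the threshold without parent library 3 (adjusted p = 0.0536), and it and NTN4 missed it without a filter on low values (0.0666 and 0.0645). HSPG2 (0.93 ± 0.07, limma adjusted p = 3.19e-05) and NTN4 (0.76 ± 0.06, limma adjusted p = 2.11e-05) were called higher in LC-2/ad as well.

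Of 5 hemidesmosome partners, 4 rose in LC-2/ad (median log2 fold change 0.37 over the list), where 30.6% of all genes did. By limma 0 of the 5 passed in TPC-1, where 4.96% of all genes did, and 0 had an unadjusted p under 0.05 (median 0.09). DST, a plakin that ties hemidesmosomes to keratin, averaged 80.9 ± 4.2 TPM treated and 58.0 ± 3.9 TPM parent in LC-2/ad (SD, n = 3 each), with a log2 fold change of 0.47 ± 0.06 (limma adjusted p = 0.000442). PLEC, also in the list, did not pass there (0.02 ± 0.07, limma adjusted p = 0.794). COL17A1, a transmembrane collagen, changed by 0.40 ± 0.08 (limma adjusted p = 0.00383), ERBIN by 0.37 ± 0.09 (0.0118) and the tetraspanin CD151 by 0.12 ± 0.02 (0.00459). CD151 no longer passed with median-of-ratios scaling (adjusted p = 0.473) or without a variance trend (0.0707).

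Of the adaptors and adhesion kinases, which join integrin tails to actin and to signalling, 8 of 26 rose and 1 fell in LC-2/ad, and the 34.6% that passed lie below the 55% over all genes. In TPC-1 5 of 24 rose, or 20.8% against 4.96% over all genes, and the median log2 fold change was 0.09 in each line. NEDD9, a docking protein for focal adhesion kinase, had 102, 99.8 and 97.4 TPM in treated LC-2/ad libraries and 34.5, 34.1 and 33.5 TPM in parent ones (log2 fold change 1.52 ± 0.04, limma adjusted p = 3.09e-07). The tensins TNS3 (1.17 ± 0.07, limma adjusted p = 7.06e-06), TNS1 (0.87 ± 0.12, limma adjusted p = 0.000638) and TNS2 (0.83 ± 0.23, limma adjusted p = 0.0178), which bind beta subunit tails, rose as well, though TNS2 missed the threshold without parent library 2 or 3 or treated library 2 and without a filter on low values (adjusted p of 0.057 to 0.0606). In TPC-1 the kinase gene PTK2B had 19.3, 21.7 and 29.5 TPM in treated libraries and 12.6, 12.2 and 8.97 TPM in parent ones (0.99 ± 0.17, limma adjusted p = 0.0127). LIMS1 (0.46 ± 0.07, limma adjusted p = 0.00719), TNS3 (0.36 ± 0.08, limma adjusted p = 0.0455) and ACTN1 (0.22 ± 0.04, limma adjusted p = 0.0216) followed. TNS3 missed the threshold in TPC-1 in 7 of 14 refits (adjusted p of 0.0688 to 0.163) and ACTN1 in 8 (0.0517 to 0.157), among them those without parent library 2 or 3 or any 1 treated library. PTK2B missed it without a filter on low values (0.089) and without a variance trend (0.0503).

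Of the other integrin ligands, 10 of 14 tested rose and 1 fell in LC-2/ad, and 4 of 13 rose and 1 fell in TPC-1, the fallen gene being TNC in each, with medians of 0.69 and 0.10. That is 78.6% called in LC-2/ad, against 55% of all genes, and 38.5% in TPC-1, against 4.96%. NPNT, a ligand of alpha8beta1, had 5.34, 5.67 and 5.79 TPM in treated LC-2/ad libraries and 1.42, 1.96 and 1.85 TPM in parent ones (log2 fold change 1.27 ± 0.13, limma adjusted p = 0.000102), while ITGA8 itself reached at most 0.0499 TPM there. EDIL3, an RGD ligand of alphaV integrins, averaged 53.7 TPM treated and 25.0 TPM parent (1.08 ± 0.07, limma adjusted p = 1.3e-05). FBN1, which encodes fibrillin-1 with an RGD site, averaged 2.28 TPM treated and 0.641 TPM parent in LC-2/ad (1.02 ± 0.20, limma adjusted p = 0.00314), and reached the test there through its treated libraries. In TPC-1, ICAM1, a ligand of beta2 integrins, had 10.2, 9.46 and 10.2 TPM in treated libraries and 3.22, 3.11 and 2.87 TPM in parent ones (1.43 ± 0.11, limma adjusted p = 0.000388). CCN1 changed there by 0.77 ± 0.07 (limma adjusted p = 0.000491) and THBS1 by 0.62 ± 0.09 (limma adjusted p = 0.00719); both bind alphaV integrins. THBS1 missed the threshold there without a filter on low values (0.0732) and without a variance trend (0.0507). CCN1 (0.63 ± 0.04, limma adjusted p = 1.74e-05) and THBS1 (0.81 ± 0.04, limma adjusted p = 2.34e-06) were called higher in LC-2/ad as well.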

How the data were processed

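Per the labels, RNA was measured in 12 samples, 3 in each of 4 groups, and libraries followed Illumina protocols. The authors deposited TPM per gene and library, 1 table per line, and each column summed to 1000000. Tools named by the submitters' processing notes are Salmon and bcl2fastq (version 2.20.0), with the build GRCh38; the annotation and the summing to genes are not given in the sources used here. TPM keep no read counts, so depth is unknown and no counting interval is given. Coordinates are those of GENCODE 29, and 34436 of 37247 identifiers had a symbol. From the deposited TPM, log2(TPM + 1) was compared within each line with limma 3.58.1 in R 4.3.3 (lmFit, then eBayes with trend). A gene was tested where its mean TPM over the line's 6 libraries reached 1, two-sided, with Benjamini-Hochberg adjustment over all tested genes and a threshold of 0.05. Fold changes are selpercatinib minus parent, on the log2(TPM + 1) scale, which understates changes of low genes. The lines, deposited in separate tables, were compared by an interaction term over 12 libraries, for genes that reached 1 TPM on average in each. The members and the lists were chosen with earlier results of these data known. Results for 1 member and 1 marker gene, which stayed in the fits, are not reported here, and counts of members and sums of markers leave them out. Every other member is accounted for, with values per library from a mean of 1 TPM, and up to 4 called genes with the largest change are named per list and line. Alternatives changed the pseudocount (0.1 or 5), the filter (none, or a mean of at least 5 TPM), the scaling (median of ratios, or without mitochondrial genes), the variance trend (none), the block (replicate number) and the libraries (each left out in turn). The fits were tested on simulated data. Tables and figures were made with pandas 2.3.3, numpy 2.4.6 and matplotlib 3.10.9 in Python 3.11.15. No libraries held identical values, and no deposited column was left out.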

Additional observations from a re-analysis of the deposited data

Results flagged for a closer look

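For 7 of the 19 genes tested in both lines, the response to selpercatinib differed between TPC-1 and LC-2/ad by the interaction term of limma. That share of 36.8% is close to the 36.6% over all genes tested. Differences are TPC-1 minus LC-2/ad on the log2(TPM + 1) scale. Lower in TPC-1 were LAMB2 (-1.01 ± 0.13, adjusted p = 8.12e-05), LAMA5 (-0.96 ± 0.13, adjusted p = 0.000126), ITGB6 (-0.49 ± 0.17, adjusted p = 0.0392) and LAMB1 (-0.45 ± 0.13, adjusted p = 0.0146). Higher in TPC-1 were ITGA3 (0.29 ± 0.08, adjusted p = 0.00988), ITGAE (0.58 ± 0.13, adjusted p = 0.00349) and ITGA2 (1.04 ± 0.14, adjusted p = 9.67e-05). The ITGB6 difference no longer passed in 13 of 19 refits, and that of ITGA3 in 1 of 20. The call within a line was in LC-2/ad for all 7: LAMB2, LAMA5, LAMB1 and ITGB6 rose there, and ITGA2, ITGAE and ITGA3 fell there. The shares of mitochondrial transcripts, 14.6% treated and 9.77% parent in LC-2/ad, moved in that line beside these differences; with those genes left out, 6 of the 7 passed and ITGA3 did not (adjusted p = 0.064).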

How the results depend on the processing

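The LC-2/ad count of 17 integrin and laminin genes stayed between 13 and 20 under every alternative, and no called value changed sign in any line. In TPC-1 the limma count of 2 became 0 without a filter on low values (10 at an unadjusted p under 0.05), 0 without a variance trend (6 at an unadjusted p under 0.05) and 4 with a mean of at least 5 TPM, where LAMB2 and LAMB3 joined; it was 0 to 2 with a library left out, where 5 to 9 had an unadjusted p under 0.05. The TPC-1 count of 17 genes in the 4 lists became 7 without a filter and 8 without a trend, and was 10 to 20 with a library left out, the lowest without parent library 3. The cause was not tested. In LC-2/ad the lists gave 32 to 38 calls, against 35. Differences between the lines numbered 5 to 8, against 7. With replicate numbers as a block the counts were 18 in LC-2/ad, 2 in TPC-1 and 6 for the difference, where ITGB6 missed (adjusted p = 0.0607), and 36 and 15 for the lists. The numbers do not pair the libraries: same-numbered libraries correlated by -0.05 to -0.01 in LC-2/ad and by -0.03 to 0.05 in TPC-1, and not every library correlated best with its own number. With 3 libraries a group and no depth, genes under about 1 TPM were not read for a change.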

Other observations

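Some integrin subunits were abundant where the subunits they are known to pair with were not. ITGAE averaged 51.0 TPM in treated and 51.9 TPM in parent TPC-1 libraries, while its partner ITGB7 averaged 0.12 ± 0.12 TPM in treated and 0.0174 ± 0.03 TPM in parent ones (SD, n = 3 each), and CDH1, which encodes its ligand, 0.82 ± 0.88 TPM in treated and 0.434 ± 0.33 TPM in parent ones. In LC-2/ad, where CDH1 averaged 190 ± 17 TPM treated and 169 ± 6.6 TPM parent, ITGB7 averaged 1.27 ± 0.1 TPM treated and 0.643 ± 0.35 TPM parent; ITGB7 faces ZNF740 on the other strand over 42.1% of its exonic length. ITGB2 averaged 55.1 TPM treated and 45.8 TPM parent in LC-2/ad, where its alpha partners ITGAL, ITGAM, ITGAX and ITGAD each averaged 1.98 TPM or less in either group, and its ligand ICAM1 averaged 155 ± 13 TPM treated and 94.3 ± 0.71 TPM parent. ICAM1 was called higher in both lines and the difference was larger in TPC-1 by 0.72 ± 0.10 on the log2 scale (limma interaction, adjusted p = 9.02e-05). These pairings were picked after the values were seen.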
